A study of Mus musculus with 8 samples.

Results

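Cluster #i2 of the immune cells held 65 of the 651 immune cells and of the 3491 cells in the whole data set. Its members were all cells that the deposited cell table places in cluster 2 of the coarser (multilevel) of its pair of clusterings. The finer (community) clustering split them into 40 cells of #i2c, 9 cells of #i4c and 16 cells of #i7c. The authors' deposited annotation called #i2c and #i7c monocytes and gave #i4c the label sKC. Cells were sorted one by one from dissociated livers of healthy adult mice of both sexes, and each was sequenced by Smart-seq2, a protocol that reads whole polyadenylated transcripts from a single cell. The mice were C57BL6/J or carried fluorescent reporter alleles on endothelial or mesenchymal cells, and none was treated. The sort used an antibody to CD68, a lysosomal protein of macrophages, endothelial antibodies or fluorescent reporter genes of the mouse lines, so the number of cells in a group reflects the sort and is no measure of cell numbers in the liver. The livers were not perfused, and a cell may come from blood. The cells carry no name of the mouse, and mice were pooled by sex. Of the 65 cells, 63 were male and 2 were female, and all 58 B cells (cluster #i5) were male. Values below are therefore from male cells unless stated, with 134 Kupffer cells of clusters #i1, #i3, #i4, #i6 and #i7, and the 58 B cells, as the groups set beside #i2.

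The male side of every comparison is 1 pool of cells. Cells of a pool are not replicates, and the clusters were drawn on the same transcriptomes that are compared here, so no test was made and no p value is given. A level is the number of counts of a gene summed over the cells of a group, per 1000000 counts (CPM). A ratio is the log2 of the CPM of a group plus 5 over that of the other plus 5. Genes were compared when at least 50% of the cells of either group held 20 or more counts. A gene was called higher at a log2 ratio of 2 or more and lower at -2 or less, with that detection in the group where it was high. Intervals are exact 95% intervals that cover counting error only, since the protocol has no molecular identifiers and reads are not independent molecules. Where no cell of a group held a gene, the limit given is 3 divided by the number of cells. Median counts per cell were 273968 in #i2c, 556123 in #i4c, 440690 in #i7c, 210196 in Kupffer cells and 262466 in B cells. The libraries of #i7c and #i4c were also the richest in genes, so ratios sit beside the median over all genes compared. Scaling by TMM factors moved that median from 0.50 to 0.20 for #i7c, from 0.06 to -0.20 for #i2c and from 0.21 to -0.04 for #i4c, each against Kupffer cells. Because depth differed, shares of cells with a marker are also given after each cell was thinned to 50000 counts, which left out 1 Kupffer cell. The groups were spread unevenly over the sorting plates. Of the 38 male #i2c cells, 28 lay on 1 plate, called plate A here, as did all 9 #i4c cells and 33 of the 134 Kupffer cells. None of the 16 #i7c cells did, and 9 of them shared a pair of plates, called plates B and C here, with 87 Kupffer cells and 50 B cells. All 3491 cell names were unique.

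Kupffer cells are the resident macrophages of the liver sinusoids. They take up particles and old red cells from blood, and they carry a set of genes that other macrophages lack, among them *Clec4f*, *Vsig4* and *Timd4*. Monocytes that enter the liver from blood can become macrophages that lack this set, and such cells often carry the fractalkine receptor *Cx3cr1* and the tetraspanin *Cd9*. Dendritic cells take up and present antigen. Conventional dendritic cells prime T cells, and plasmacytoid dendritic cells (pDC) are known for sensing viral nucleic acid and for making type I interferon. The lectin *Siglech* and the gut-homing chemokine receptor *Ccr9* mark pDC in mice, and the transcription factor E2-2, the product of *Tcf4*, is required for their development.

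The promoters of the 2 pDC markers are shown because both genes were read in nearly every #i7c cell and E2-2 is a factor that binds E-box sequences. The windows are the 250 bases before the start of each gene, from RefSeq on build GRCm38.p6, 5′ to 3′ on the strand of the gene. Capitals mark the E-box CAGGTG, searched on both strands. The *Siglech* window is chr7:55767934-55768183 on the plus strand, and the *Ccr9* window is chr9:123766961-123767210 on the plus strand.
Siglech: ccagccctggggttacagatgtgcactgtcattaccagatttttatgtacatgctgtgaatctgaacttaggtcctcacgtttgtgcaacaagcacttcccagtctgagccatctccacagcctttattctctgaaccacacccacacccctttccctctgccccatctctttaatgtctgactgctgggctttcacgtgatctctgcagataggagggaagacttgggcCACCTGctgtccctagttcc
Ccr9: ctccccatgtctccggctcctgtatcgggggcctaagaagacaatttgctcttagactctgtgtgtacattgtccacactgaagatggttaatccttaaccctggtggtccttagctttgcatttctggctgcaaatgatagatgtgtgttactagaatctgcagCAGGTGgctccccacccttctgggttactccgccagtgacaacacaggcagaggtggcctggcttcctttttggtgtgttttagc
Each of these windows held 1 CAGGTG, as did that of *Cd9*, and that of *Cx3cr1* held 0. All 4 markers of #i2 had a window in the table. CAGGTG was found in 17.1% of all 27025 windows of this length, and in 35 of the 214 windows (16.4%) of the genes called higher in #i7c than in Kupffer cells, and in 6 of the 18 windows (33.3%) of the pDC list. The motif GAGGAAG, a core that the factors PU.1 and SpiB bind, was in 10.4% of all windows, 16.8% of those 214 and 3 of those 18. A match is a run of letters and not a site of binding.

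The 4 markers split #i2 along its finer clusters. *Siglech* had 20 or more counts in 16 of 16 #i7c cells (interval from 79.4% up), where it ran from 3444 to 7109 CPM per cell with a median of 4178. It had that many counts in 1 of 38 #i2c cells, 0 of 9 #i4c cells, 2 of 134 Kupffer cells and 1 of 58 B cells. The #i7c cells did not overlap any of these groups, whose highest single cell was at 1032 CPM in #i2c, 130.2 CPM in Kupffer cells and 178 CPM in B cells. *Ccr9* was in 14 of 16 #i7c cells (87.5%, interval 61.7 to 98.4%), from 0 to 2090.0 CPM per cell with a median of 1026. Among the #i2c, #i4c, Kupffer and B cells, a single cell held 20 counts of *Ccr9*, an #i2c cell that also held *Siglech*, and 3 of 655 male endothelial cells held that many, up to 442 CPM. After thinning, the shares in #i7c were 16 of 16 cells for *Siglech* and 12 of 16 for *Ccr9*, and 0 of 133 Kupffer cells held either gene.

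*Cx3cr1* and *Cd9* marked #i2c less evenly. *Cx3cr1* reached 20 counts in 18 of 38 #i2c cells (47.4%, interval 31 to 64.2%) and ran from 0 to 10262 CPM with a median of 27.8. Its 18 cells all held *C1qa* and *Csf1r*, genes that macrophages share, and 12 of them held *Cd9*. Only 3 of 134 Kupffer cells reached that count of *Cx3cr1*, and none of the #i4c, #i7c and B cells did, which allows shares of up to 33.3%, 18.8% and 5.17%. *Cd9* reached it in 26 of 38 #i2c cells (68.4%, interval 51.3 to 82.5%), from 0 to 1696 CPM with a median of 437. The other groups overlapped #i2c for *Cd9*. It was in 11 of 134 Kupffer cells and in 4 of 58 B cells, with highest cells at 1134 and 1271 CPM. It is no marker of immune cells alone, and was in 321 of 655 male endothelial cells, at 439 CPM for the group against 499 in #i2c. After thinning, 18 of 38 #i2c cells held *Cx3cr1* and 21 of 38 held *Cd9*, against 3 and 9 of 133 Kupffer cells.

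**Figure D1:**
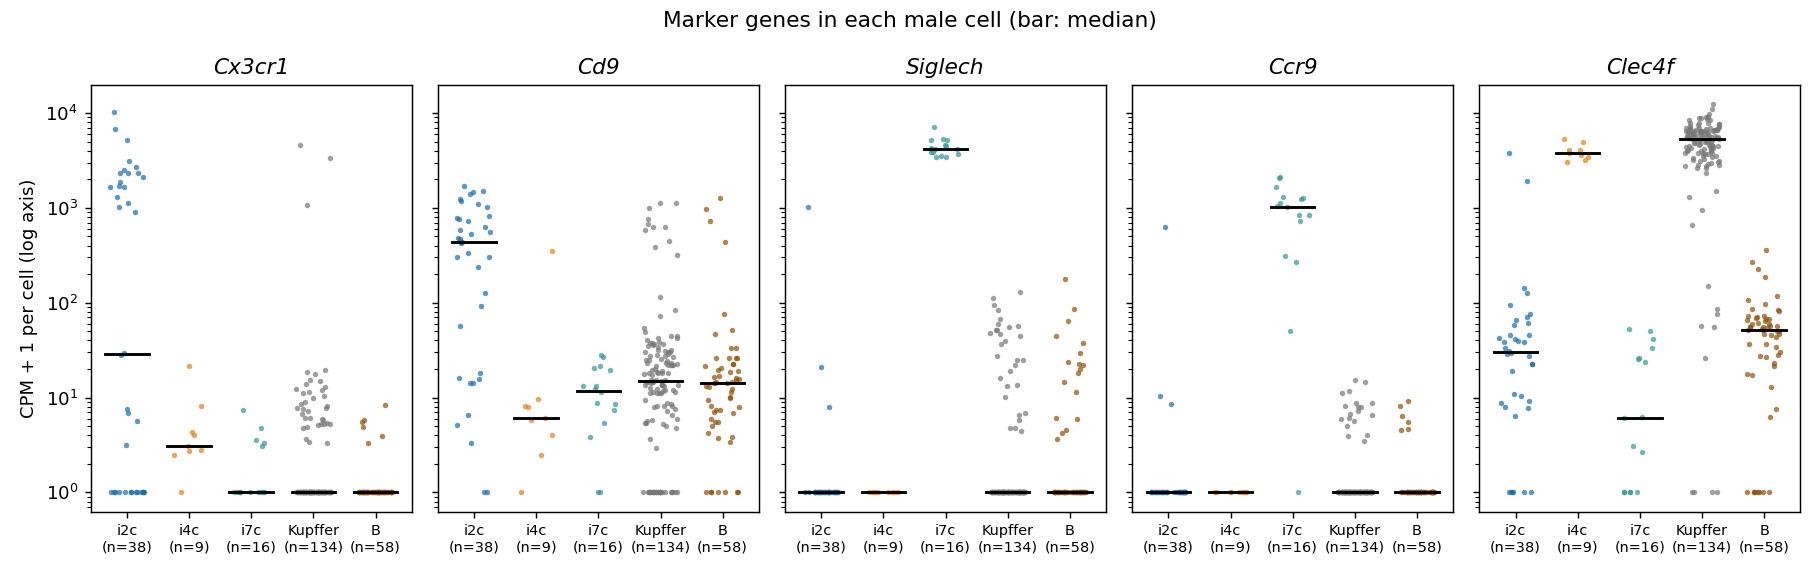
CPM plus 1 of 5 genes in each male cell on a log axis, with the median of a group as a bar. *Siglech* and *Ccr9* set the 16 #i7c cells apart, *Cx3cr1* was present in 18 of 38 #i2c cells, and *Clec4f* in the 9 #i4c cells, with a median of 3830.1 CPM, lay within the range of the 134 Kupffer cells, whose median was 5303 CPM.

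The 9 cells of #i4c went against the reading of #i2 as cells other than Kupffer cells. *Clec4f*, a C-type lectin that in mice is largely restricted to Kupffer cells, ran from 3009.6 to 5379 CPM in the #i4c cells with a median of 3830.1, and from 0 to 12354 CPM in Kupffer cells with a median of 5303. All 9 #i4c cells held at least 10 of the 20 genes of the Kupffer cell list at 20 or more counts, against 91 of 134 Kupffer cells, 1 of 38 #i2c cells and 0 of 16 #i7c cells. After thinning, *Clec4f* was in 9 of 9 #i4c and 124 of 133 Kupffer cells. The list was not recounted after thinning, and the #i4c cells were the deeper. They are described below by their cluster name only. A low level of Kupffer cell transcripts was present in cells of all groups. In B cells, which do not make *Clec4f* or *C1qa*, 17 and 19 of 58 cells held 20 counts of them, at 59.4 and 56.7 CPM for the group. *Clec4f* in #i2c was in 5 of 38 cells and in #i7c in 2 of 16 cells, no larger a share than in B cells, and is read as background except in 2 #i2c cells. After thinning it was in 2 of 38 #i2c cells and 0 of 58 B cells.

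Set against Kupffer cells as a whole, #i2 had 20 of 734 genes called higher (2.72%) and 14 called lower (1.91%). The 8 largest among the higher genes began with *S100a11*, a calcium-binding protein (log2 ratio 3.42), the chemokine *Ccl3* (3.26) and *Btg2*, an inhibitor of proliferation (3.10). The others were *Pisd-ps1*, *Klf6*, *Zfp36*, *Dusp1* and *Nxf1*. With the female cells of both sides added, *Pisd-ps1* (0.48), *Klf6* (1.33), *Nxf1* (1.81) and *Dusp1* were no longer called. The 5 lowest were the complement genes *C4b* (-3.00) and *C6*, the ficolin *Fcna*, its antisense neighbour *Fcnaos* and the apolipoprotein *Apoc1*, which was at -1.89 with the female cells. *C4b* has a near-identical copy, and counts cannot separate *Fcna* from a transcript on its other strand if strand was not used. Without the cells of plate A, 133 of 951 genes were higher and 70 lower, and *Klf6* (1.18) and *Dusp1* (1.58) were not called. This changed the makeup of #i2, since 10 #i2c and 16 #i7c cells were left and no #i4c cells.

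**Figure D2:**
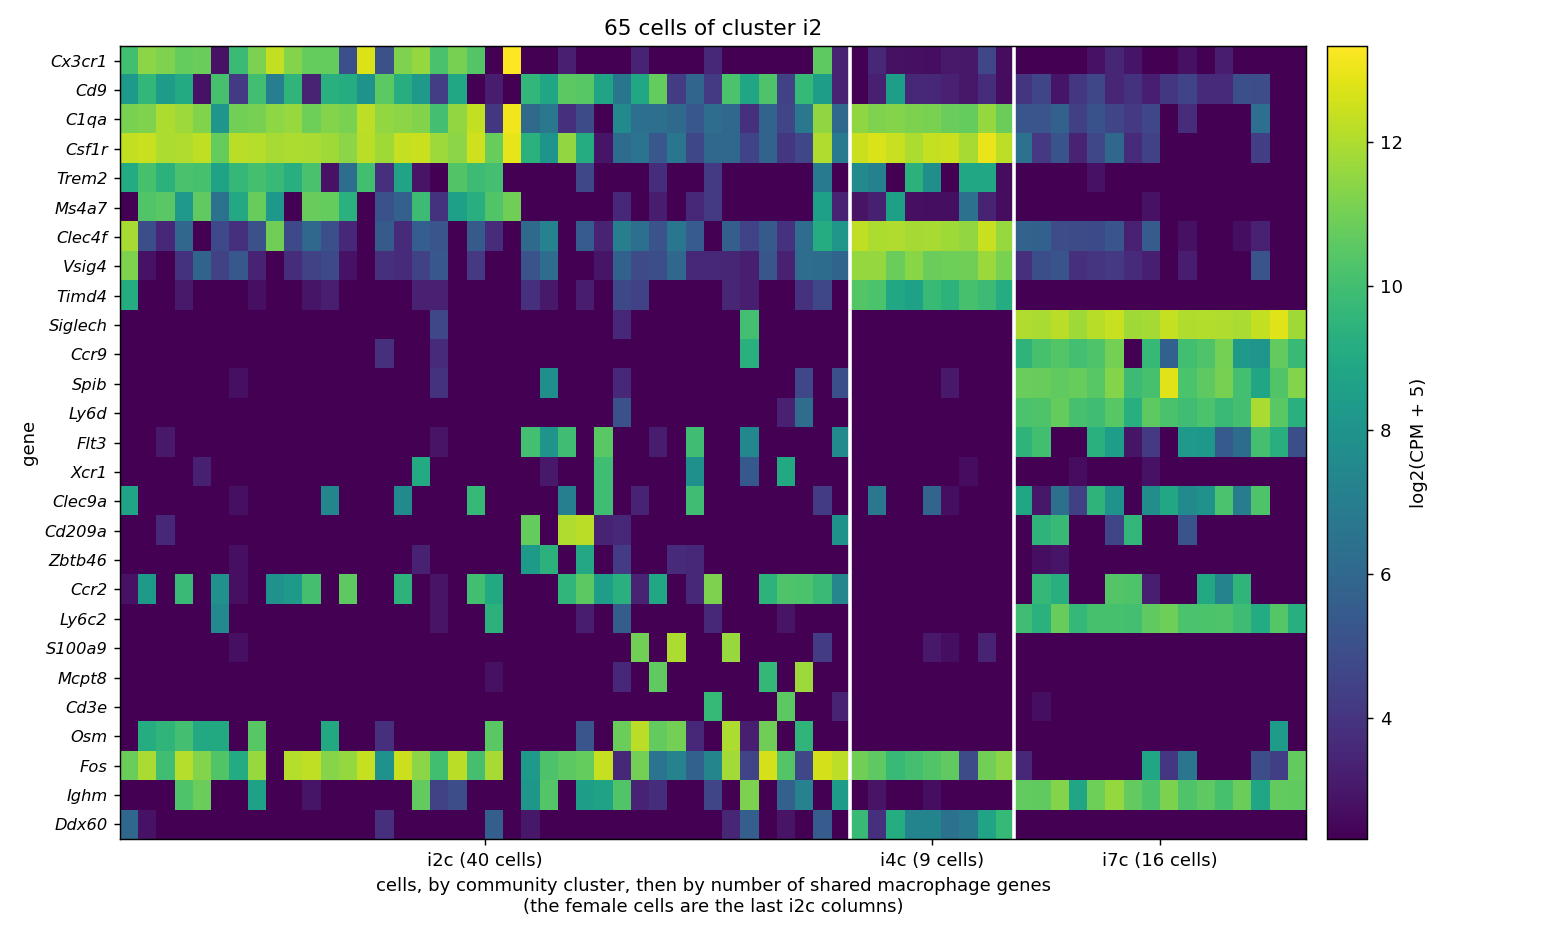
log2 of CPM plus 5 for 27 genes in the 65 cells, ordered by finer cluster and then by how many shared macrophage genes a cell held, with genes as rows. The 16 cells of #i7c and the 9 cells of #i4c each form an even block, while the right part of #i2c holds single cells with *S100a9*, *Mcpt8*, *Cd3e*, *Xcr1* or *Cd209a*.

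The #i7c cells differed most from Kupffer cells. Of 1403 genes compared, 295 were called higher (21%) and 77 lower (5.49%), beside a median log2 ratio of 0.50 over all genes compared. With no limit on detection the balance turned, to 1493 higher and 1647 lower. Of the 25 genes of the pDC list, 15 of the 16 cells held at least 13, and no cell of any other group here did. The group is called pDC-like on these markers. Of the list 23 genes were compared, 20 were higher and 0 lower, with a median of 6.07. Only 3 of the 25 were compared in #i2c and 5 in #i4c, so most passed the limit on detection through #i7c, and the count and the median follow in part from that limit. On plates B and C, where 9 #i7c cells sat beside Kupffer cells, 336 of 1434 genes were higher (23.4%) and 81 lower (5.65%), and 19 of 22 compared genes of the pDC list were higher.

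Among the 8 largest of the higher genes in #i7c were *Siglech* (8.27), *Runx2*, a transcription factor (7.67), *Ccr9* (7.47), the transporter *Slco4a1* (7.29), *Cd7* (7.24) and *Ly6c2* (7.21). *Runx2* ran from 61.3 to 3098 CPM per cell with a median of 1015, and its highest Kupffer cell was at 18.8 CPM. *Cd7* was in 15 of 16 cells, at 1000.4 CPM for the group, against 7 of 38 #i2c cells. *Ly6c2* is often used to mark classical monocytes and has a close copy, *Ly6c1*. It was in all 16 #i7c cells, from 541 to 1927 CPM, and in 2 of 38 #i2c cells. Of the classical monocyte list of 11 genes, 3 were compared and all 3 were higher in #i7c, among them *Ly6c2* and *Plac8* (2.15), but *Fn1*, *Vcan*, *F13a1*, *Hp*, *Chil3*, *Clec4e* and *Gda*, which monocytes also carry, were each below 3 CPM there. *Ccr2* of this list was in 7 of 16 cells. On plates B and C 2 of 3 were higher, and *Plac8* at 1.91 was not. The summed level of the list ran from 689 to 6056 CPM in #i7c cells and from 0 to 3026 CPM in Kupffer cells. *Ly6c2* and *Plac8* are also known from pDC.

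Several lineage factors known from pDC were high in #i7c. Of 28 genes on the list of myeloid lineage factors, 9 were compared, 5 were higher and 2 lower, beside 21% and 5.49% of all genes. Factors such as *Tcf4* passed the limit on detection through #i7c, so the count follows in part from that limit. *Tcf4*, *Spib* and *Irf8* are also on the pDC list. *Tcf4* ran from 256 to 1646 CPM per cell with a median of 852, against a median of 3.87 in Kupffer cells (log2 ratio 3.76). *Spib*, an ETS factor of pDC and B cells, was in 16 of 16 cells (6.74), and *Bcl11a*, which acts with *Tcf4* in pDC, was in 14 of 16 (5.46). *Irf8*, needed by several dendritic cell types, was at 3427 CPM against 359 in Kupffer cells (3.24). The macrophage factors went the other way. *Spi1*, which encodes PU.1, was at 140.1 CPM against 1084 (-2.91), and *Nr1h3*, the LXRα gene on which Kupffer cell identity rests, was at 2.17 CPM against 748 (-6.71).

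*Flt3*, the receptor for the growth factor of dendritic cells, was in 10 of 16 cells at 307 CPM and in 0 of 134 Kupffer cells, which allows up to 2.24%. *Csf1r*, the receptor for the growth factor of macrophages, was at 15.6 CPM against 4947 (-7.91). Of the 16 chemokine receptors, 2 were compared, *Ccr9* was higher and *Cxcr3* (8 of 16 cells, log2 ratio 1.57) was neither. Of the 21 genes for nucleic acid sensing and Toll-like receptors, 6 were compared, with a median of -0.04 beside 0.50 for all genes. Of these 6 genes 2 were higher, beside 21% of all genes compared. They were the RNA sensor *Tlr7* (2.09) and the endosomal transporter *Slc15a4* (2.44), which Toll-like receptor signalling in pDC needs. *Tlr9*, which senses DNA, was in 5 of 16 cells at 307 CPM and in 1 of 134 Kupffer cells. *Unc93b1*, the chaperone of these receptors, was in 16 of 16 cells at 1349 CPM, and its ratio of -0.19 was neither. *Irf7*, the factor that drives interferon genes, was at 435 CPM in #i7c and 1163 in Kupffer cells (-1.41, neither). Of the 30 interferon-stimulated genes, 4 were compared and 0 called, with a median of -0.11.

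The #i7c cells also held genes known from lymphocytes. *Ighm*, the heavy chain of IgM, was in all 16 cells, from 434 to 3098 CPM with a median of 1614, and in all 58 B cells, from 119 to 11422 CPM with a median of 4677. *Ly6d* was in 16 of 16 #i7c and 46 of 58 B cells, at 1219 and 1246 CPM, and *Fcrla* was at 650.4 and 528 CPM. The defining genes of B cells were near 0 in the same cells. *Cd79a* was at 7.90 CPM in #i7c and 3209.6 in B cells, *Ms4a1* at 1.24 and 1203, and *Pax5* at 0.929 and 582. Over the 13 genes of the B cell list, the summed level ran from 634 to 3098 CPM in #i7c cells and from 402 to 34863 CPM in B cells, and 0 of 16 #i7c cells held at least 7 of the 13. *Cd4* was in 11 of 16 #i7c cells at 712 CPM, and the interleukin 7 receptor gene *Il7r* in 9 of 16 at 379 CPM. *Cd3e*, *Cd3d* and *Cd3g*, which define T cells, were each at 2.01 CPM or less.

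Genes of macrophages were low in #i7c. Of the 14 genes that macrophages share, 10 were compared, 8 were lower and 0 higher, and of the 20 Kupffer cell genes 11 of 12 compared were lower, with medians of -6.99 and -7.20. The 5 lowest genes in #i7c were the iron exporter *Slc40a1* (-7.99), *Csf1r* (-7.91), *Hpgd* (-7.80), *Clec4f* (-7.65) and *Vsig4* (-7.58). *Cd68*, on which macrophages were sorted, was among the 2 shared genes that were neither, at 728 CPM in 15 of 16 cells against 1340.2 in Kupffer cells. The Fc receptor genes *Fcgr3* (-7.12) and *Fcgr4* (-6.75) were lower, whereas the signalling adaptor *Tyrobp*, which pairs with *Siglech*, was at 1410.4 against 1720.0 CPM (-0.29, neither).

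Most compared antigen presentation genes were not called in #i7c. Of 15 genes for MHC class II presentation and costimulation, 8 were compared with Kupffer cells, 1 was higher and 0 lower. Of all genes compared 21% were higher and 5.49% lower, so the few calls say little about this list. The higher gene was *H2-Oa*, a chain of the class II modulator H2-O that B cells also make (3.70), at 270.0 CPM in #i7c, 16.2 in Kupffer cells and 697 in B cells. *H2-Aa* ran from 10.4 to 4684 CPM in #i7c with a median of 2080.2, within the range of Kupffer cells. Of the lists of conventional dendritic cells, 3 of 4 compared shared genes were higher (*Flt3*, *Kmo* and *Jaml*, at 5.77, 6.80 and 6.03), 1 of 2 compared cDC1 genes (*Clec9a*, 3.68) and 2 of 3 compared cDC2 genes (*Cd7* and *Clec10a*, 3.41). Of all genes 21% were higher. In #i2c against Kupffer cells 1 gene of each of these lists was compared, so most of the higher genes passed the limit on detection through #i7c. Their counts follow in part from that limit. *Zbtb46* and *Xcr1*, which define conventional dendritic cells and cDC1, were each at 0.310 CPM, and 0 of 16 cells held at least 6 of the 11 cDC1 or 5 of the 10 cDC2 genes. At least 5 of the 10 shared genes of conventional dendritic cells were held by 6 of 16 #i7c cells (37.5%, interval 15.2 to 64.6%), 3 of 38 #i2c cells, 0 of 134 Kupffer cells, 0 of 58 B cells and 59 of 655 male endothelial cells. *Batf3* had no count in #i7c.

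**Figure D3:**
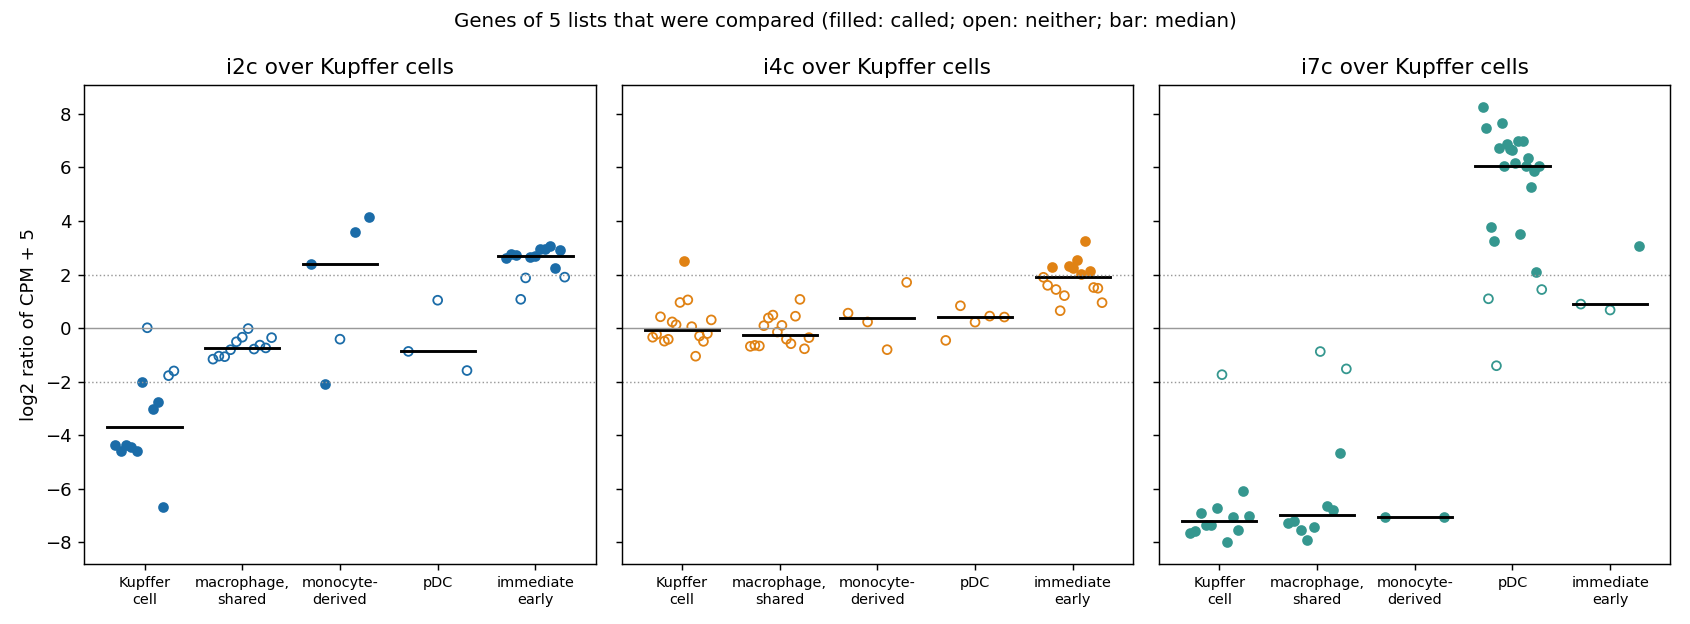
log2 ratio of CPM plus 5 over Kupffer cells for the compared genes of 5 lists in #i2c, #i4c and #i7c, with called genes filled, other genes open and the median of a list as a bar. Kupffer cell genes were lower in #i2c and #i7c and level in #i4c, and pDC genes were higher in #i7c. Shared macrophage genes were called lower in #i7c alone among the 3, with medians of -0.74 in #i2c, -0.25 in #i4c and -6.99 in #i7c.

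A part of the #i2c cells held the genes that macrophages share. Of 38 male cells, 24 (63.2%, interval 46 to 78.2%) held at least 7 of the 14 shared macrophage genes. Of the other 14, 3 held basophil genes, 3 neutrophil genes, 1 T cell genes and 2 cDC1 genes at the same measure of at least that many of a list, and 5 held none of these lists. Of the 24, 1 also held the Kupffer cell list and 2 also held lists of conventional dendritic cells, and 21 held none of these other lists. At least 7 of the 14 genes of monocyte-derived and lipid-associated macrophages were held by 16 of the 24, and at least 6 of the 12 genes of nonclassical monocytes by 2. Counts for all 38 cells therefore mix these kinds.

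Against Kupffer cells, #i2c had 29 of 643 genes called higher (4.51%) and 23 lower (3.58%). On plate A alone, with 28 and 33 cells, these were 22 of 785 (2.80%) and 25 (3.18%), and without that plate they were 61 and 41 of 788. With the 24 cells that held shared macrophage genes, 44 of 951 were higher, so more genes were compared there too. Of the 12 compared genes of the Kupffer cell list, 9 were lower and 0 higher, with a median of -3.69 beside 0.06 for all genes, and on plate A also 9 of 12 with a median of -3.17. The 5 lowest genes were *C6* (-6.68), *Fcna* (-5.34), *Fcnaos* (-4.93), *Cd5l* (-4.61), a secreted scavenger protein of macrophages, and *Vsig4* (-4.58), a complement receptor. *Timd4*, a receptor for dying cells, ran from 0 to 556 CPM in #i2c and was in 1 of 38 cells, against 71 of 134 Kupffer cells. *Cd163* and *Marco*, both scavenger receptors, were in 0 of 38 cells, which allows up to 7.89%, and in 55 and 33 of 134 Kupffer cells. *Id3* was an exception, at 676 and 671 CPM.

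Genes that macrophages share were not called between #i2c and Kupffer cells by the same threshold. Of the 14, 11 were compared and 0 called, with a median of -0.74 beside 0.06 for all genes. Their summed level was 26229 CPM in the 24 #i2c cells with shared macrophage genes, 2626 in the other 14 and 33605 in Kupffer cells. *Csf1r* in #i2c ran from 2.69 to 7702 CPM with a median of 2864, and 26 of 38 cells held it. *C1qa*, a chain of the complement component C1q, was in 24 of 38 cells. The *C1qa* share in #i2c was above the 19 of 58 B cells that held it as background, and after thinning it was 20 of 38 against 0 of 58.

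The 8 largest of the higher genes in #i2c were *Slamf7*, a receptor of activated immune cells (5.64), the monocyte chemokine receptor *Ccr2* (4.93), the chemokines *Ccl4* (4.25) and *Ccl3* (4.13), *S100a11* (3.83), the cyclin *Ccnd2* (3.65), the lysosomal tetraspanin *Cd63* (3.57) and *Btg2* (3.06). *Slamf7* ran from 0 to 1779.7 CPM with a median of 155 and was in 20 of 38 cells, against 1 of 134 Kupffer cells. *Ccr2* was in 19 of 38 cells and 1 of 134, and 10 of those 19 were among the 24 macrophage-like cells. *Cd63* was in 21 of 38 cells and 6 of 134, and 18 of the 21 were macrophage-like. Within plate A the ratios were 4.97 for *Slamf7*, 3.55 for *Ccr2*, 2.77 for *Ccl4*, 4.70 for *S100a11* and 2.67 for *Cd63*, and these and *Ccl3* were all called higher.

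The list of monocyte-derived and lipid-associated macrophages had 14 genes, 5 of them compared in #i2c. *Cd9* (2.40), *Cd63* and *Ccl3* were higher, *Lpl*, the lipoprotein lipase gene (-2.09), was lower, and *Lgals3* was neither. Within plate A *Cd9* was at 1.69 and was not called. Several members were high in fewer than 50% of the cells and so were not compared. *Trem2*, a lipid receptor, was in 17 of 38 #i2c cells (44.7%, interval 28.6 to 61.7%) against 22 of 134 Kupffer cells, and *Ms4a7* in 16 of 38 against 24 of 134. All cells with *Trem2* were among the 24. *Gpnmb*, a lysosomal glycoprotein, was in 5 of 38 cells, each of which also held *Trem2*, and *Spp1*, osteopontin, was in 16 of 38 against 13 of 134. On plate A *Trem2* was in 14 of 28 #i2c and 15 of 33 Kupffer cells. At least 7 of the 14 genes were held by 16 of 38 #i2c cells and by 2 of 134 Kupffer cells. Of these, 14 of 28 #i2c and 2 of 33 Kupffer cells were on plate A, against 2 of 10 and 0 of 101 on other plates.

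Cytokine genes were strong in a part of #i2c. Of the 26 chemokines and cytokines, 4 were compared and 2, *Ccl3* and *Ccl4*, were higher, beside 4.51% of all genes. The median of the 4 was 2.40, beside 0.06 for all genes. *Ccl3* ran from 0 to 4716 CPM with a median of 696, and 26 of 38 cells held it against 8 of 134 Kupffer cells. Oncostatin M, *Osm*, a cytokine of the interleukin 6 family, was in 15 of 38 #i2c cells (39.5%, interval 24 to 56.6%) at 528 CPM and in 0 of 134 Kupffer cells (limit 2.24%). Of those 15 cells, 8 were macrophage-like, 3 held *Mcpt8* and 3 held *S100a9*. *Il1b* was in 16 of 38 and 14 of 134 cells, *Cxcl2* in 9 and 1, *Tnf* in 11 and 3, and *Ccl9* in 13 and 7. After thinning, *Ccl3* was in 22 of 38 #i2c cells and 7 of 133 Kupffer cells, and *Osm* in 15 of 38 and 0 of 133. Plate moved with these genes. The summed level of the 26 had a median of 5165 CPM in #i2c cells on plate A and 2084 on other plates, and of 3151 and 2239 CPM in Kupffer cells. The part of the plate was not tested. *Osm* was in 13 of 28 #i2c cells on plate A and in 0 of 33 Kupffer cells there.

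Of the 16 chemokine receptors, 1 was compared in #i2c, *Ccr2*, which was higher. The others were each in fewer than 50% of the cells of either group. Of these, *Ccr1* was in 10 of 38 #i2c cells and *Ccrl2*, a decoy-like receptor, in 16 of 38, against 0 and 3 of 134 Kupffer cells. Of the MHC class II list, 7 genes were compared and 0 called, with a median of 0.71. On plate A 9 were compared and 1, the activation marker *Cd83* (2.47), was higher, with a median of 1.61. *H2-Aa* ran from 0 to 8954 CPM with a median of 3335 in #i2c, and from 0 to 7542 with a median of 1310.0 in Kupffer cells. Of 23 Fc receptor, Siglec and adaptor genes, 10 were compared and 0 called.

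**Figure D4:**
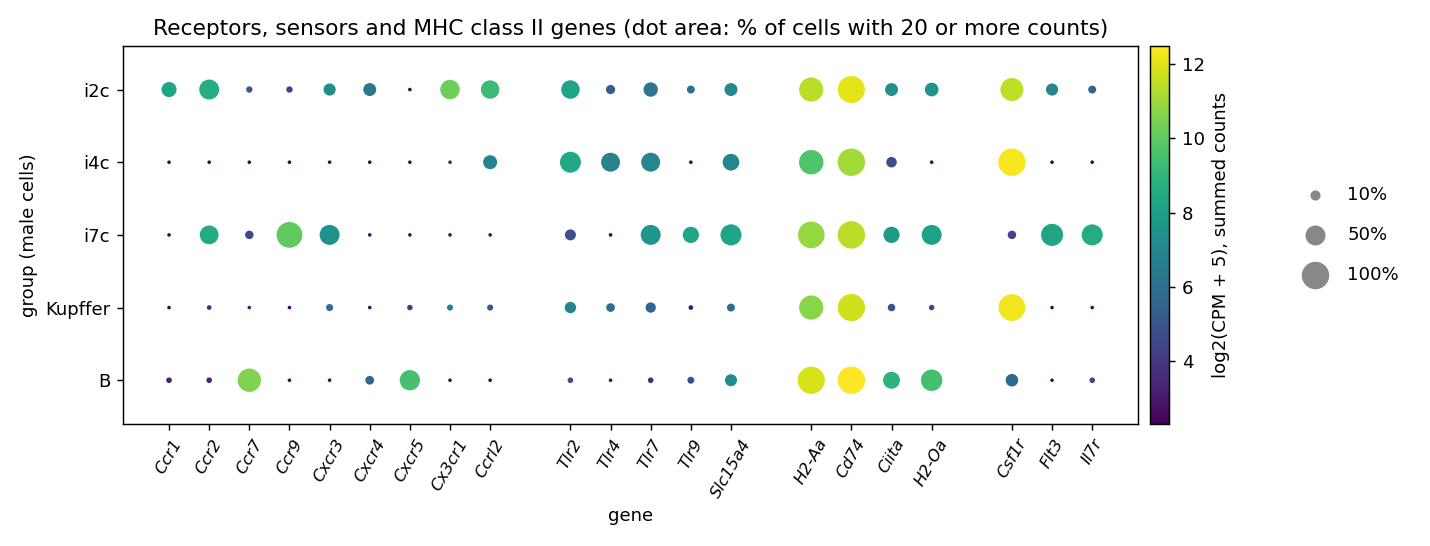
Level (colour, log2 of CPM plus 5) and share of cells with 20 or more counts (dot area) of chemokine receptors, Toll-like receptors with the transporter *Slc15a4*, MHC class II genes and growth factor or cytokine receptors in male cells of 5 groups. *Ccr1*, *Cx3cr1* and *Ccrl2* were seen mainly in #i2c, *Ccr9*, *Flt3* and *Il7r* in #i7c, and *Ccr7* and *Cxcr5* in B cells.

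Some #i2c cells held genes of other kinds of immune cell. The 6 basophil and mast cell genes *Mcpt8*, *Cpa3*, *Fcer1a*, *Ms4a2*, *Gata2* and *Cd200r3* were each in 3 of 38 cells, and each was below 1 CPM in Kupffer, B and #i7c cells. *S100a8* and *S100a9*, calcium-binding proteins of neutrophils and monocytes, were both in the same 3 cells, with *S100a9* up to 4056 CPM, while *Ly6g* and *Camp* were at or near 0. *Cd3e* and *Cd3d* were in the same 2 cells. Of cDC1 genes, *Xcr1* was in 4 cells and *Clec9a* in 7, with 2 cells that held both, and 4 of the 7 with *Clec9a* and 1 of the 4 with *Xcr1* were among the 24 that held the shared macrophage list. The cDC2 gene *Cd209a* was in 3 cells, up to 4639.5 CPM, and *Flt3* in 6. One #i2c cell on plate A held *Siglech* at 1032 and *Ccr9* at 625 CPM. Genes of the migratory dendritic cell list were sparse, with *Ccr7* in 1 of 38 cells and *Ccl22* at 0.

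Immediate early genes were higher in #i2c and #i4c than in Kupffer cells, and plate A moved with them. These are genes such as *Fos* and *Jun* that are induced within minutes, also by tissue dissociation. Of 20 genes, 13 were compared in #i2c, 10 were higher and 0 lower, with a median of 2.70, beside 4.51% and a median of 0.06 for all genes. In #i4c 7 of 15 were higher, with a median of 1.90, beside 3.22% and 0.21, and in #i7c 1 of 3 was. Within plate A the counts were 3 of 13 for #i2c (*Zfp36*, *Btg2* and *Nr4a1*) and 2 of 15 for #i4c, with medians of 1.42 and 0.69, beside 2.80% and 3.51% of all genes and medians of 0.02 and 0.15. *Fos* ran from 17.9 to 6231 CPM with a median of 2258 in the 28 #i2c cells of that plate, and from 15.3 to 12247 with a median of 81.2 in its 33 Kupffer cells, so the groups overlapped. The summed level of the 20 genes had a median of 20609 CPM in #i2c on plate A and 12656 on other plates, and of 2293 CPM in Kupffer cells on plate A and 444 on other plates. In the #i7c cells, none of which were on that plate, the median was 2920.2. In B cells it was 7378, and in male endothelial and mesenchymal cells 7344 and 8830. Against B cells, 11 genes of the list were compared in #i2, 1 was higher and 10 were neither, with a median of 0.29. The part of the plate in the differences between groups was not tested. *Hspa1a* of this list has a near-identical copy, *Hspa1b*.

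**Figure D5:**
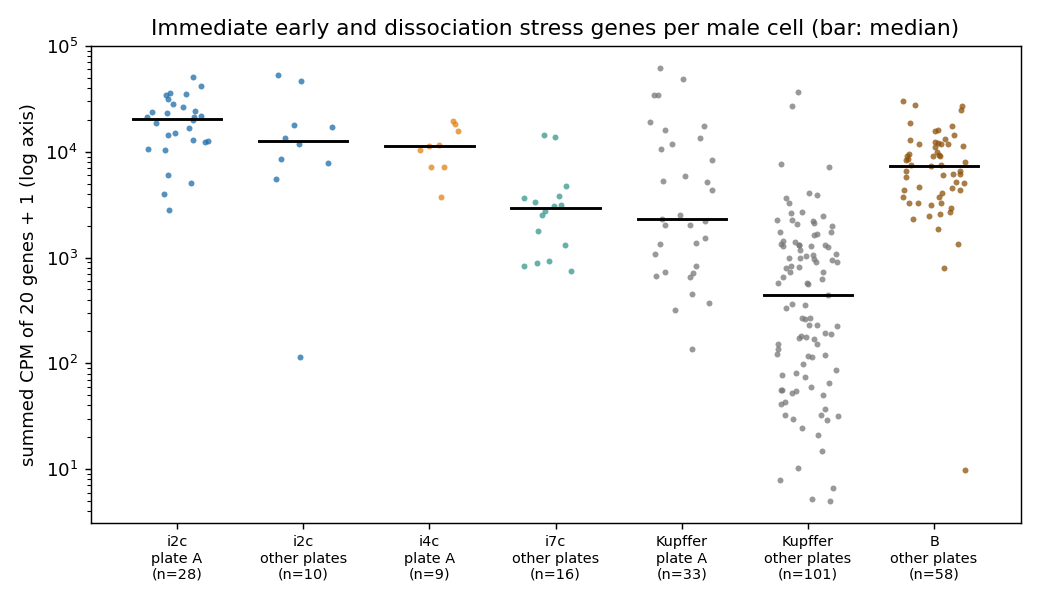
Summed CPM plus 1 of 20 immediate early and dissociation stress genes per male cell on a log axis, by group and plate, with the median as a bar. Cells of #i2c were high on plate A and elsewhere, and Kupffer cells were higher on plate A than on other plates, with medians of 2293 and 444 CPM.

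Of 1708 genes compared between the 9 #i4c cells and Kupffer cells, 55 were called higher (3.22%) and 2 lower (0.117%), and against the Kupffer cells of the same plate 60 of 1707 were higher (3.51%) and 0 lower (0.00%). The split changed with the detection limit of 20 counts, and the #i4c libraries were the deeper. With a limit of 1 count 173 genes were higher and 133 lower, and with no limit 734 and 1407. The finer cluster from which #i4c comes held 18 cells in all, and 8 male cells of it lay in the Kupffer clusters and are part of the 134. With these 8 moved to the #i4c side, 30 genes were higher than in the other Kupffer cells, 16 of them among the 55. Of the Kupffer cell list, 16 genes were compared, 1 was higher and 0 lower, and of the 14 shared macrophage genes all were compared and 0 called, with medians of -0.08 and -0.25. *Vsig4* ran from 1789 to 3285 CPM, *Cd5l* from 2954 to 5350.3 and *Timd4* from 394 to 1331, each in 9 of 9 cells. *Timd4* was in 71 of 134 Kupffer cells, with a median of 169.9 CPM. *Cx3cr1* was in 0 of 9 cells and *Cd9* in 1 of 9. *Marco* was in 2 of 9 and *Cd163* in 6 of 9.

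The 8 largest of the higher genes in #i4c were *Bbc3*, a cell death gene also known as Puma (3.67), the tRNA ligase *Rars* (3.62), *Btg2* (3.26), the adaptor *Gab3* (3.04), *Fez2* (2.91), the antiviral GTPase *Mx1* (2.89), *Stard9* (2.86) and *Klf6* (2.83). *Klf6* was in 9 of 9 #i4c cells and *Btg2* in 7 of 9, and the rest in fewer. *Bbc3* was in 5 of 9 #i4c cells, from 0 to 454 CPM, and *Rars*, *Fez2*, *Gab3* and *Stard9* were each in 5 of 9. Against the Kupffer cells of plate A, *Bbc3* (2.35), *Rars* (3.39), *Btg2* (2.08), *Fez2* (2.87) and *Mx1* (2.44) were still called, and *Gab3* (1.59), *Stard9* (1.48) and *Klf6* (1.68) were not. *Lars2*, the mitochondrial leucine tRNA ligase, was the named gene among the 2 lower, from 192 to 404 CPM in #i4c and from 97 to 5191 in Kupffer cells (-2.24), and was at -1.38 within the plate. With the female Kupffer cells added, *Bbc3* and *Btg2* were still called and the other named genes were not, with *Rars* at 1.81, *Mx1* at 1.47 and *Lars2* at -0.89.

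Of the 30 interferon-stimulated genes, 16 were compared in #i4c, 2 were higher and 0 lower, beside 3.22% and 0.117% of all genes. The median was 0.66 beside 0.21 for all genes. The 2 higher genes were *Mx1* and *Dhx58* (2.02), a sensor of viral RNA. Within plate A 1 of 16 was higher, beside 3.51% of all genes, with a median of 0.27 beside 0.15. *Ddx60*, a helicase that the interferon response induces, ran from 9.48 to 859 CPM with a median of 151 and was in 8 of 9 cells, against 19 of 134 Kupffer cells overall and 11 of 33 on plate A. Its ratio was 1.59 over all Kupffer cells and 0.96 on the plate, neither of them called. *Id1*, which lies on the Kupffer cell list, and *Klf2* were the other factors called higher (2.50 and 2.16), and within the plate neither was called, with *Klf2* at 0.97.

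B cells, the lymphocytes that make antibodies, came from the same male pool. Of 781 genes compared, 86 were called higher in #i2 (11%) and 49 lower (6.27%). The 8 largest were *Rgs1*, a regulator of chemokine signalling (7.50), the inhibitory receptors *Lair1* (6.41) and *Sirpa* (6.28), *Alox5ap* of leukotriene synthesis (6.14), *Cd68* (6.05), the pore-forming *Mpeg1* (5.95), *Efhd2* (5.89) and the adaptor *Fyb* (5.71). *Rgs1* was in 39 of 63 #i2 cells and in 0 of 58 B cells, which allows up to 5.17%. *Fyb* was in 28 of 38 #i2c, 9 of 9 #i4c and 15 of 16 #i7c cells and in 1 of 58 B cells. *Lair1*, *Sirpa*, *Cd68*, *Mpeg1* and *Alox5ap* were likewise found in all 3 finer clusters, and no B cell held 20 counts of them. Of 9 compared shared macrophage genes, 8 were higher, and of 9 compared Fc receptor and adaptor genes 6 were, among them *Tyrobp* (3.78) and *Fcer1g* (4.45).

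Among the 5 lowest genes of that comparison were *Cd79a*, a chain of the B cell receptor (-8.32), *Fcmr* (-8.19), *Ms4a1* (-7.72) and *Fcer2a* (-7.50). *Cd79a* was in 56 of 58 B cells and 1 of 63 #i2 cells. All 11 compared genes of the B cell list were lower in #i2. Of this list 0 genes were compared between #i2 and Kupffer cells. The 11 therefore passed the limit on detection through the B cells, and their count follows in part from that limit. The lymphoid homing receptors *Ccr7* (-5.84) and *Cxcr5* (-7.02) were lower too, in 2 and 0 of 63 #i2 cells. Of 11 compared MHC class II genes 3 were lower, *H2-DMb2* (-4.03), *H2-Ob* (-3.82) and *H2-Oa* (-2.02). *Cd74*, *H2-Aa*, *H2-Ab1* and *H2-Eb1* were neither, from -0.74 for *Cd74* to -0.91 for *H2-Eb1*.

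Within #i2, the pDC-like #i7c cells were also set against #i2c. Of 1452 genes compared, 218 were higher in #i7c (15%) and 87 lower (5.99%), and with no limit on detection 1286 and 1961. The 8 largest were *Ly6d* (7.63), *Slco4a1*, *Klk1*, *Siglech* (7.28), *Spib* (7.15), *Fcrla* (6.91), *Pacsin1* and the cytochrome oxidase subunit *Cox6a2* (6.43). *Slco4a1*, the kallikrein *Klk1* and *Pacsin1* had no count in the 38 #i2c cells, so no ratio is given, and stood at 866, 784 and 514 CPM in #i7c. The 5 lowest were *Csf1r* (-7.10), the F4/80 gene *Adgre1* (-6.90), *Fcgr3* (-6.88), *Nr4a1* (-6.76) and the galectin *Lgals3* (-6.64). *Nr4a1* is also an immediate early gene and was in 20 of 38 #i2c cells and 0 of 16 #i7c cells. Of 13 compared immediate early genes 9 were lower in #i7c, with a median of -3.19. None of the #i7c cells lay on plate A. Plates B and C held 9 #i7c and 6 #i2c cells, and 3 of these 6 held at least 7 of the 14 shared macrophage genes. There 354 of 1921 genes were higher in #i7c (18.4%) and 211 lower (11%), and 136 and 40 of these were among the 218 and 87 of the comparison over all plates. On those plates 9 of 12 compared immediate early genes were lower, with a median of -3.77. Their summed level ran from 840 to 3813 CPM in those #i7c cells and from 5543 to 53104 CPM in those #i2c cells, so these 9 and 6 cells did not overlap. Over all plates the groups did overlap. On other plates an #i7c cell reached 14352 CPM and an #i2c cell was at 114 CPM.

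Over 10 endothelial genes, the summed level was 137 CPM in #i2c, 400.2 in #i4c and 497 in #i7c, against 15309.6 in male endothelial cells, and 0 of 63 cells held at least 5 of the 10. Over 8 hepatocyte genes it was 1600.3, 2084 and 137 CPM, against 2246 in Kupffer cells, 433 in B cells and 11674 in male epithelial cells. At least 4 of the 8 were held by 3 of 63 cells, all in #i2c. No male cell of #i2 held at least 6 of the 12 cell cycle genes.

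The 2 female cells lay on 1 plate and in #i2c. The first had 184626 counts and held *Flt3* (34 counts), *Cd209a* (244 CPM), *Kmo* (942 CPM), *Itgax* (1007 CPM) and *H2-Aa* (7263 CPM), with *Cx3cr1* at 5.42 CPM and *C1qa* at 59.6 CPM. The second had 145335 counts and held *Cx3cr1* (1548 CPM), *Csf1r* (4094 CPM), *C1qa* (2904 CPM), *Itgax* (2264 CPM) and *Cd9* (351 CPM), with no count of *Flt3*. With 2 cells, male and female #i2 were not compared.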

How the data were processed

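Single liver cells of male and female mice were sequenced by Smart-seq2 with single 50-base reads. The deposited table holds counts of reads per gene and cell, which the authors made without normalization. The submitters' processing notes name bcl2fastq, Bowtie and Bowtie2, featureCounts of Subread, Seurat and the build GRCm38 (mm10), with no versions, and the authors clustered the cells with pagoda2. Cells had been filtered by the authors, and no doublet caller was run here. The counting is not stated to use strand. No test was run, since each side of a comparison is 1 pool.

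Counts of the male cells of a group were summed without the ERCC spike-in transcripts and scaled to 1000000 (Python 3.11.15, numpy 2.4.6, pandas 2.3.3, scipy 1.17.1). Median depth ran from 210196 counts per cell in Kupffer cells to 556123 in #i4c. Each comparison names the 8 largest genes called higher and the 5 smallest called lower. Predicted, ribosomal and mitochondrial genes were counted and not named, and a few other genes that this rule selects are not reported here. The members and the 27 lists of genes were chosen with earlier results of these data known. Alternatives were TMM factors (edgeR 4.0.16), median-of-ratios size factors (DESeq2 1.42.0), a pseudocount of 1, other limits on detection, thinned cells, and other choices of cells. The code that makes the calls was run on simulated data with known changes, which checks the code and not the calls. Promoter windows are from RefSeq.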

Additional observations from a re-analysis of the deposited data

How the results depend on the processing

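Of 168 recomputed counts and shares, 115 stayed within 1.5 times the count or within the interval of the share, and 53 did not. Of 940 recomputed ratios of named genes, 922 stayed at 2 or more, or at -2 or less, in the same direction. A further 18 kept the direction but fell between -2 and 2, and 0 changed direction. The limit on detection that a call also needs was not checked again for these ratios. With no filter on detection the higher and lower genes were 950 and 314 for #i2 against Kupffer cells, 1001 and 657 for #i2c, 734 and 1407 for #i4c, 1493 and 1647 for #i7c, 1691 and 754 for #i2 against B cells, and 1286 and 1961 for #i7c against #i2c. With a limit of 1 count they were, in the same order, 76 and 58, 96 and 106, 173 and 133, 584 and 321, 384 and 117, and 463 and 397, and *Cd9* was in 94.7% of #i2c cells. With cells thinned to 50000 counts the higher genes were 6, 15, 11, 108, 35 and 90, with 1 lower gene for #i4c and 45 for #i7c against #i2c. TMM factors left 9 higher genes for #i2 and 31 for #i4c against Kupffer cells. With both pools, 11 were higher and 26 lower for #i2, 49 lower for #i2c, 24 higher and 5 lower for #i4c, and 198 lower for #i7c. Against Kupffer cluster 1 alone, 32 were higher for #i2 and 92 for #i4c. With all cells of its community cluster, #i4c had 30 higher. On plates with at least 3 cells of either side, #i4c had 0 lower, and #i7c had 354 higher and 211 lower than #i2c. These settings differ in the genes or cells that enter, and beyond that the cause was not tested.

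Some settings were chosen after seeing the data. Without plate A, 133 of 951 genes were higher and 70 lower for #i2 against Kupffer cells, with no #i4c cells left in #i2. For #i2c they were 61 and 41 of 788. Without its #i4c cells, #i2 had 34 of 699 lower, and the #i2c cells with macrophage genes had 44 of 951 higher. The values for #i2c on plate A alone belong to these settings too. No paired analysis was possible because each side of a comparison is 1 pool of cells, with no replicate numbers that the groups share. Values within plates that hold both sides are given in the text.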
